A study of Mus musculus with 6 samples.

Results

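A set of 10 canonical targets of Wnt signalling was followed in the mammary epithelium of mice on lactation day 1: Axin2, Lef1, Tcf7, Ccnd1, Lgr5, Lgr6, Znrf3, Rnf43, Cd44 and Sox9. They were chosen by name as established Wnt targets, with earlier results of these data known. All 10 had a column among the 17739 gene symbols of the deposited table. RNA came from 3 mice in which Nmi was conditionally deleted, labelled Nmi-/- and called Nmi KO here, and from 3 wild-type (WT) mice, with 1 library per mouse. All mice were of the FVB background, which is an inbred strain. The tissue was epithelial organoids, pieces of gland (the second and the third pair) released by collagenase with pronase and then enriched in short spins. The sources used here do not give the transgene that drove the deletion, the cells it acted in or the age of the mice. The series describes its question as the part that Nmi loss plays in overgrowth of this epithelium. The values are FPKM, fragments per unit of gene length and of mapped fragments in the library. The length scaling lets levels of genes be set side by side, within the limit that Gapdh shows below.

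In canonical Wnt signalling, a secreted Wnt ligand binds a Frizzled receptor with its co-receptor and stops the destruction of β-catenin, which then enters the nucleus and switches on genes through TCF and LEF factors. Several of these targets feed back on the pathway. Axin2 rebuilds the complex that destroys β-catenin, Znrf3 and Rnf43 remove Frizzled receptors from the cell surface, and Lgr5 and Lgr6 bind the R-spondins that hold Znrf3 and Rnf43 in check. In the mammary gland the pathway is known for its role in basal stem and progenitor cells and in ductal growth.

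The genotypes could be told apart by Nmi itself, an interferon-inducible gene on chromosome 2 (GRCm38, 51948487 to 51973494, minus strand). Its level was 0.188, 0.547 and 0.564 FPKM in Nmi KO replicates 1, 2 and 3, against 4.60, 2.82 and 2.32 FPKM in WT replicates 1, 2 and 3. Milk protein transcripts (18 genes) took between 63.6% and 76.7% of the FPKM sum in Nmi KO libraries and between 48.0% and 70.8% in WT libraries. They were lowest in WT replicate 1 and highest in Nmi KO replicate 3, and FPKM of the other genes shrinks as that share grows. Summed basal markers (11 genes, among them Krt14 and Acta2) ran from 474 to 1485 FPKM in Nmi KO and from 563 to 1177 FPKM in WT. Summed luminal markers (11 genes, among them Krt8 and Krt18) ran from 1055 to 3402 FPKM in Nmi KO and from 2626 to 5456 FPKM in WT. These are bulk libraries, so fewer cells of a type and less RNA per cell cannot be told apart. The housekeeping gene Gapdh was at most 0.0769 FPKM and was listed at 0 in 3 libraries, so low entries, which may be failed estimates, were not taken as lack of expression. No counts were used, and the depth of the libraries is unknown.

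**Figure D1:**
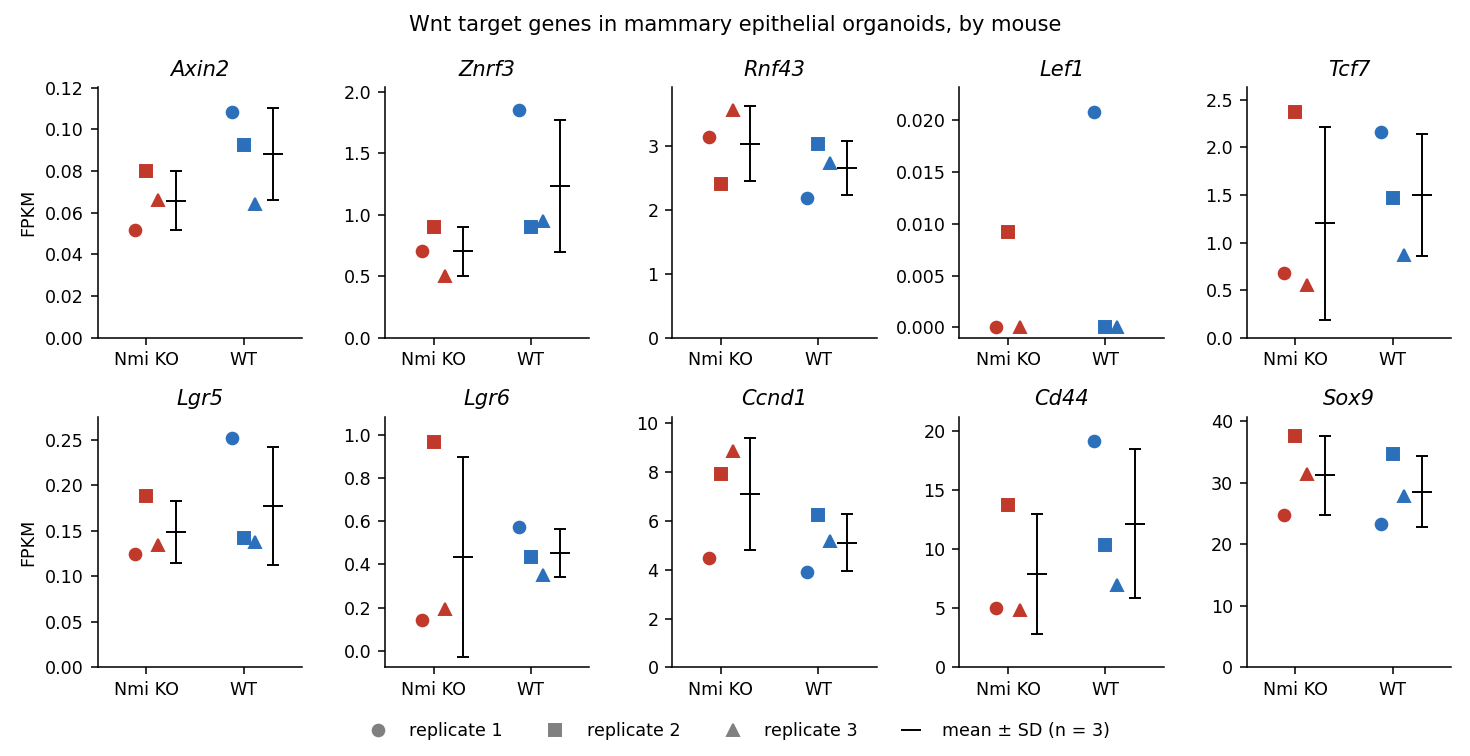
FPKM of the 10 Wnt target genes in each mouse, Nmi KO in red on the left and WT in blue on the right of each panel, with the marker shape giving the replicate and the bar the mean ± SD (n = 3; none for Lef1, which was listed at 0 in 4 libraries). The genotypes overlap in all 10 panels, and the scales run from Lef1, at most 0.0208 FPKM, to Sox9, up to 37.5 FPKM.

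The 10 genes lay at very different levels in these libraries. Sox9, a transcription factor of luminal progenitors, was the highest, from 23.2 to 37.5 FPKM over the 6 libraries, between percentiles 90.7 and 96.5 of all genes of a library. Cd44 (4.88 to 19.1 FPKM) and Ccnd1 (3.91 to 8.87 FPKM) came next, and their ranges overlapped. Below them lay Rnf43 (2.20 to 3.57 FPKM), Tcf7 (0.551 to 2.37 FPKM), Znrf3 (0.499 to 1.85 FPKM) and Lgr6 (0.142 to 0.967 FPKM), each overlapping the next. Lgr6 also overlapped Lgr5, which ran from 0.125 to 0.252 FPKM. The ranges of Lgr5, Axin2 and Lef1 did not overlap one another. Axin2, the target most often used to read out the pathway, lay between 0.0517 and 0.108 FPKM, between percentiles 21.3 and 24.9. Lef1 was listed at 0 in 4 libraries. Axin2 and Lef1 thus lay near the floor of the table, where Gapdh was listed too. Of the output genes, Cd44 lay between percentiles 71.5 and 88.4 and Ccnd1 between 61.2 and 85.4.

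For 6 of the 10 genes RefSeq (GRCm38.p6) gave windows from 250 bases before to 50 bases after a transcription start. The 5 windows shown belong to Cd44, Tcf7 and Lgr6, whose levels were highest in the same 3 libraries, to Rnf43, whose level was lowest where Cd44 was highest, and to the feedback gene Axin2. They lie at chr2:102901616-102901915 (minus strand) for Cd44, chr11:52282965-52283264 (minus strand) for Tcf7 and chr1:135105227-135105526 (minus strand) for Lgr6. The other windows lie at chr11:87662837-87663136 (plus strand) for Rnf43 and chr11:108920099-108920398 (plus strand) for Axin2. Each is written 5′ to 3′ on the strand of its gene, and capitals mark CTTTG, the core of the motif bound by TCF and LEF factors, on either strand.
Cd44: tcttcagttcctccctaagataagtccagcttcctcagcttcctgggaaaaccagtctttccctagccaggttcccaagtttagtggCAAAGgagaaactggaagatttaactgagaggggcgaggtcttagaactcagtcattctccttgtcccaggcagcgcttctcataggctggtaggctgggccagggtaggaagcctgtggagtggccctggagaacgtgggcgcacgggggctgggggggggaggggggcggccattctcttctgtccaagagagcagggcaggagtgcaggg
Tcf7: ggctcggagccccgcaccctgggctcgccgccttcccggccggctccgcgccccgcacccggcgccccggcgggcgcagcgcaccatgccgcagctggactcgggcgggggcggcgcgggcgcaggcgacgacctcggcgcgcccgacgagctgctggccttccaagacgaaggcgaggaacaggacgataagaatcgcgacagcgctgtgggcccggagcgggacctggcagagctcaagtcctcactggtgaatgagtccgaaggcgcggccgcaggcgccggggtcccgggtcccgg
Lgr6: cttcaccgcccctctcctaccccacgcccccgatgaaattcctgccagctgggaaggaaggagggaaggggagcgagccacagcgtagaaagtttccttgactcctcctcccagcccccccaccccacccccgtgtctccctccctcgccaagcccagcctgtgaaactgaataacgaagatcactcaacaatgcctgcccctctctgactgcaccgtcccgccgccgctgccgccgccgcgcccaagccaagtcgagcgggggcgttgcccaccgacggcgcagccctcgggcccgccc
Rnf43: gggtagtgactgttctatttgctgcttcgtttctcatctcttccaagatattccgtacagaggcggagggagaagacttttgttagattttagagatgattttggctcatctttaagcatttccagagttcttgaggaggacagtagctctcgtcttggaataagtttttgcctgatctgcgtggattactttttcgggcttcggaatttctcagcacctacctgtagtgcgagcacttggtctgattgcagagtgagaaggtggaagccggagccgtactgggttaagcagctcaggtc
Axin2: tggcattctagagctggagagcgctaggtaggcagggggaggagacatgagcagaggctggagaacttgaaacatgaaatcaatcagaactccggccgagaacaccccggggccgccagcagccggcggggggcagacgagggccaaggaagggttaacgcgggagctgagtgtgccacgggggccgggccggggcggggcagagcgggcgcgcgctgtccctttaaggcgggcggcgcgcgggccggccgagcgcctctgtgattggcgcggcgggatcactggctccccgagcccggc
The fuller motif, CTTTGAA or CTTTGAT on either strand, was in 0 of the 11 windows of these 6 genes, against 8.65% of all 32851 windows in the table. The core CTTTG, which the fuller motif contains, was in 5 of the 11 windows, 1 of Cd44 and 4 of Lef1, against 53.9% of all windows. Windows of Lef1 in part overlap one another, so the 11 are not all separate stretches. By gene the core was in 2 of 6, against 57.4% of all genes with a window. Among the windows printed, Cd44 holds it once, on the opposite strand, where it reads CAAAG. The G and C share of the windows printed was 76.3% for Tcf7, 70.0% for Axin2, 67.7% for Lgr6, 58.0% for Cd44 and 46.7% for Rnf43, against a median of 52.7% over all windows. Tcf7 and Rnf43 each had a further window that is not printed, with shares of 64.3% and 44.3%. A match is a run of letters and not a bound site, and TCF and LEF sites often lie outside such windows.

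For none of the 5 Wnt targets tested with limma was a difference between Nmi KO and WT organoids called. In this design Nmi itself, though lower in every Nmi KO library, was not called after adjustment (log2 fold change -1.54, SE 0.23, limma adjusted p = 0.372). The 5 tested targets (Tcf7, Ccnd1, Rnf43, Cd44 and Sox9) passed the filter of at least 1 FPKM in at least 3 libraries. Limma was run on log2(FPKM + 1), a scale that understates changes of low genes. At an adjusted p under 0.05 (Benjamini-Hochberg adjustment over all 9767 tested genes), 0 of the 5 were called in either direction, where 0.0% of all tested genes were called. At an unadjusted p under 0.05 the count was 0 of 5, where 1.33% of all tested genes (130 genes) passed, 0.184% higher and 1.15% lower in Nmi KO. The groups overlapped for all 10 genes, where 4.61% of the tested genes had groups that did not overlap, 0.778% higher and 3.83% lower in Nmi KO. The other 5 (Axin2, Lef1, Lgr5, Lgr6 and Znrf3) did not pass the filter, and all of them except Lef1 were compared with an exact permutation test on FPKM. With 3 mice against 3 the smallest p of an exact permutation test is 0.1, so that test could not reach 0.05 for any of them. The median log2 fold change of all tested genes was -0.21, and of those 130 genes 13.8% were higher in Nmi KO. That share was 48.2% after trimmed-mean rescaling, 48.6% after quantile normalization and 42.5% after rescaling to the sum outside the milk proteins. Each fold change is therefore also given as its distance from that median.

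**Figure D2:**
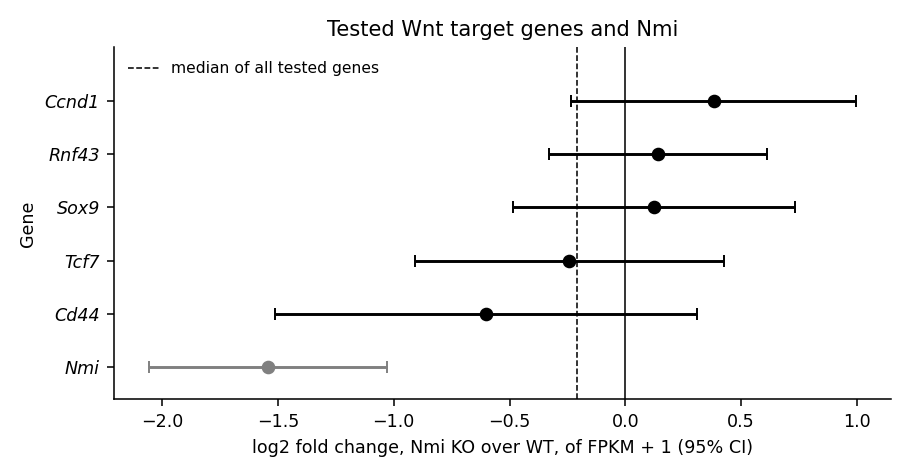
log2 fold change (Nmi KO over WT, FPKM + 1) with its 95% confidence interval from limma for the 5 Wnt targets that passed the filter, in black, and for Nmi, in gray (n = 3 mice each). The intervals of the 5 targets span 0 and the dashed median of all tested genes (-0.21), and that of Nmi (-2.06 to -1.03) spans neither.

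The feedback genes that act on receptors and on β-catenin had mean differences of either sign. Rnf43 was not called by limma, and the permutation test of Axin2 and Znrf3 could not give a p under 0.1. Axin2 had 0.0517, 0.0799 and 0.0659 FPKM in Nmi KO replicates 1, 2 and 3, against 0.108, 0.0923 and 0.0642 FPKM in WT replicates 1, 2 and 3. Nmi KO replicates 2 and 3 lay above WT replicate 3, so the groups overlapped. The means were 0.0658 ± 0.0141 FPKM in Nmi KO and 0.0882 ± 0.0222 FPKM in WT (SD, n = 3 each; exact permutation p = 0.3, two-sided). The difference of -0.0224 FPKM was -0.0125 FPKM without WT replicate 1 and -0.00931 FPKM after trimmed-mean rescaling. Znrf3, a ubiquitin ligase that removes Frizzled, had 0.704, 0.901 and 0.499 FPKM in Nmi KO, against 1.85, 0.898 and 0.946 FPKM in WT. WT replicate 1 stood far above the rest, and the groups overlapped through Nmi KO replicate 2 and WT replicate 2 alone. The Nmi KO mean was 0.569 times the WT mean (0.702 ± 0.201 FPKM in Nmi KO, 1.23 ± 0.537 FPKM in WT, SD, n = 3 each), with an exact permutation p of 0.2. Without WT replicate 1 the difference in means shrank to -0.221 FPKM, against -0.531 FPKM with it, and without Nmi KO replicate 3 as well it was -0.120 FPKM.

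Rnf43, the paralog of Znrf3 with the same role, did not share that pattern. It had 3.14, 2.41 and 3.57 FPKM in Nmi KO replicates 1, 2 and 3, against 2.20, 3.03 and 2.74 FPKM in WT replicates 1, 2 and 3. The highest level was in Nmi KO replicate 3 and the lowest in WT replicate 1, the reverse of Znrf3. Its log2 fold change came to 0.14 (SE 0.21, 95% confidence interval -0.33 to 0.61, limma adjusted p = 0.797), which is 0.35 above the median of all genes. Rnf43 varied little, 1.63 times between the lowest and the highest library, against 3.71 times for Znrf3.

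Of the TCF and LEF factors that carry the signal to DNA, Lef1 could not be compared. It was listed at 0, 0.00922 and 0 FPKM in Nmi KO and at 0.0208, 0 and 0 FPKM in WT. An annotated antisense gene shares 13.7% of its exon bases. Tcf7, which encodes TCF-1, had 0.683, 2.37 and 0.551 FPKM in Nmi KO replicates 1, 2 and 3, against 2.16, 1.47 and 0.874 FPKM in WT replicates 1, 2 and 3. Nmi KO replicate 2 was above every WT library and the other Nmi KO libraries were below every one. Its log2 fold change came to -0.24 (SE 0.30, 95% confidence interval -0.91 to 0.42, limma adjusted p = 0.774), or -0.04 relative to the median of all genes. Tcf7 and Lef1 are also T-cell factors. Cd4, a marker of helper T cells, had 0.0474, 0.0989 and 0.215 FPKM in Nmi KO, against 0.0372, 0.0127 and 0.0110 FPKM in WT, with no overlap. Cd3e, a part of the T-cell receptor complex, had 0.0255, 0.118 and 0.0733 FPKM in Nmi KO and was listed at 0 in WT, also with no overlap. Both genes were below the filter, where the share of genes without overlap was not computed. Entries this low may be failed estimates. Cd3d, Cd2, Cd8a and Nkg7 overlapped, with a lower mean in Nmi KO for Cd2 and Cd8a and a higher one for Cd3d and Nkg7. The list of these markers summed to 3.24 to 10.4 FPKM in Nmi KO and 2.24 to 10.02 FPKM in WT. Most of it was Thy1, which stromal and basal cells also express. The part of T cells in the Tcf7 and Lef1 values was not tested.

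The R-spondin receptors Lgr5 and Lgr6, known as stem cell markers, were both low. Lgr5 had 0.125, 0.188 and 0.134 FPKM in Nmi KO, against 0.252, 0.142 and 0.138 FPKM in WT. WT replicate 1 was the highest, and Nmi KO replicate 2 came second. The means were 0.149 ± 0.0340 FPKM in Nmi KO and 0.177 ± 0.0649 FPKM in WT (SD, n = 3 each; exact permutation p = 0.5), and without WT replicate 1 the order turned (0.00889 FPKM higher in Nmi KO). Lgr6 had 0.142, 0.967 and 0.194 FPKM in Nmi KO, against 0.571, 0.434 and 0.349 FPKM in WT. Nmi KO replicate 2 held the highest Lgr6 of all libraries and the other Nmi KO libraries the lowest, a spread of 6.82 times. The means were 0.434 ± 0.462 FPKM in Nmi KO and 0.452 ± 0.112 FPKM in WT (SD, n = 3 each; exact permutation p = 1.0). The sign of this difference changed with the scaling of the libraries and without Nmi KO replicate 1 or 3 or WT replicate 1.

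Among the output genes, Ccnd1, which encodes cyclin D1 and drives entry into the cell cycle, had the highest fold change of the 5 tested (0.067, below Tcf7 at 0.15, without both WT replicate 1 and Nmi KO replicate 3). It had 4.49, 7.92 and 8.87 FPKM in Nmi KO replicates 1, 2 and 3, against 3.91, 6.25 and 5.16 FPKM in WT replicates 1, 2 and 3. Nmi KO replicates 2 and 3 were above every WT library, and Nmi KO replicate 1 was within the WT range. The means were 7.10 ± 2.30 FPKM in Nmi KO and 5.10 ± 1.17 FPKM in WT (SD, n = 3 each). Its log2 fold change came to 0.38 (SE 0.28, 95% confidence interval -0.23 to 0.99, limma adjusted p = 0.768), 0.59 above the median of all genes and higher than that of 97.7% of them. It was 0.60 after quantile normalization, and 0.64 without Nmi KO replicate 1, 0.22 without Nmi KO replicate 3 and 0.23 without WT replicate 1. LTO1, listed in the table under its older symbol Oraov1, lies on the opposite strand and shares 23.4% of the exon bases of Ccnd1. Its own level was 2.13, 3.19 and 2.06 FPKM in Nmi KO and 4.15, 3.47 and 2.57 FPKM in WT, higher in WT replicates 1 and 2 than in any Nmi KO library. The sources used here do not say whether the counting used strand.

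Cd44, a hyaluronan receptor of basal and migrating cells, had the lowest fold change of the 5 (-0.014, above Rnf43 at -0.047, without both WT replicate 1 and Nmi KO replicate 3). It had 5.003, 13.7 and 4.88 FPKM in Nmi KO replicates 1, 2 and 3, against 19.1, 10.3 and 6.94 FPKM in WT replicates 1, 2 and 3. As with Tcf7, Nmi KO replicates 1 and 3 were below every WT library, and Nmi KO replicate 2 was above 2 of the 3. The means were 7.87 ± 5.07 FPKM in Nmi KO and 12.1 ± 6.30 FPKM in WT (SD, n = 3 each). On the log2 scale the fold change came to -0.60 (SE 0.41, 95% confidence interval -1.51 to 0.31, limma adjusted p = 0.768), or -0.39 relative to the median of all genes. It was -0.24 without WT replicate 1, -0.38 without Nmi KO replicate 3, -0.39 without Nmi KO replicate 1, -1.04 without Nmi KO replicate 2 and -0.91 without WT replicate 3.

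Sox9 varied little between mice. It had 24.7, 37.5 and 31.4 FPKM in Nmi KO, against 23.2, 34.6 and 27.8 FPKM in WT, 1.62 times between the lowest and the highest library. Replicates of both genotypes covered nearly the same range. On the log2 scale the fold change came to 0.12 (SE 0.28, 95% confidence interval -0.48 to 0.73, limma adjusted p = 0.852), 0.33 above the median of all genes. The sign turned without Nmi KO replicate 2 (-0.016) and without WT replicate 1 (-0.012).

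Several of the genes ranked the libraries alike. Spread between libraries was not tested against the difference between genotypes. Tcf7, Lgr6, Cd44 and Lgr5 were highest in Nmi KO replicate 2, WT replicate 1 and WT replicate 2, as were both the summed basal and the summed luminal markers, and all of these were lowest in Nmi KO replicates 1 and 3. Axin2 was also highest in those 3 libraries, with WT replicate 3 and not Nmi KO replicate 3 next to the bottom. The summed basal markers were 489, 1485 and 474 FPKM in Nmi KO replicates 1, 2 and 3 and 1177, 934 and 563 FPKM in WT replicates 1, 2 and 3. The summed luminal markers were 2615, 3402 and 1055 FPKM in Nmi KO and 5456, 3531 and 2626 FPKM in WT. Not every marker followed its sum. The luminal marker Elf5 was highest in Nmi KO replicates 1 and 3 (237 and 207 FPKM). Of the basal markers, Krt5 was lowest in WT replicate 3 (25.6 FPKM). Trp63 was lower in Nmi KO replicate 2 (2.81 FPKM) than in WT replicate 3 (2.94 FPKM). Krt14, the basal keratin, had 74.7, 137.6 and 44.6 FPKM in Nmi KO, against 149, 117 and 64.6 FPKM in WT. Rnf43 and Ccnd1 were lowest in WT replicate 1 and highest in Nmi KO replicate 3, as was the summed FPKM of milk proteins. The part of epithelial cell content and of milk transcripts in these differences was not tested for each gene. With the milk share as a covariate in limma, the log2 fold change was -0.016 for Cd44, 0.21 for Ccnd1, 0.00058 for Rnf43, 0.05 for Sox9 and 0.14 for Tcf7.

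**Figure D3:**
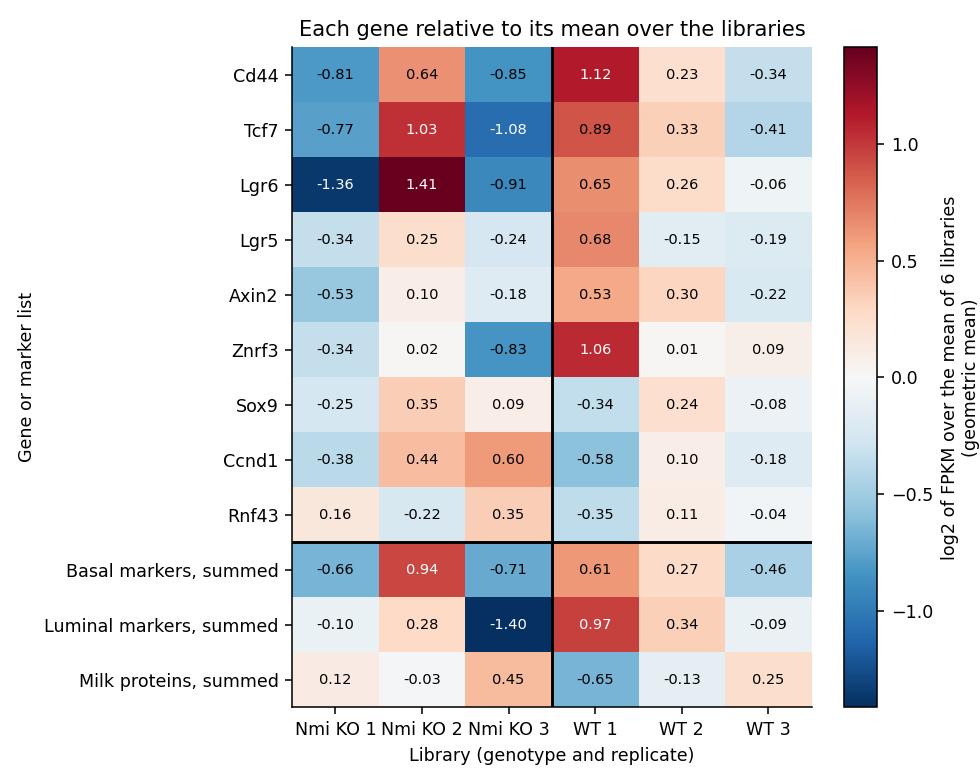
log2 of FPKM over the geometric mean of the 6 libraries for 9 Wnt targets (Lef1, listed at 0 in 4 libraries, is left out) and, under the line, for summed basal, luminal and milk protein genes, with Nmi KO libraries left of WT. Cd44, Tcf7 and Lgr6 share the sign of both the basal and the luminal markers in each library, opposite to the milk proteins (in Nmi KO replicate 2, Tcf7 1.03, basal markers 0.94, luminal markers 0.28 and milk proteins -0.028). Rnf43 has the opposite sign to the basal markers in 4 libraries.

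How far the genotypes overlapped depended on which library was left out. Groups of fewer mice also overlap less readily. Without Nmi KO replicate 2, the groups of 6 of the 10 genes did not overlap. Tcf7, Lgr5, Lgr6, Znrf3 and Cd44 were lower in Nmi KO replicates 1 and 3 than in every WT library, and Rnf43 was higher. Of the 5 genes that passed the filter 3 were among them. The same held for 32.2% of all tested genes without that library, 28.2% lower and 4.03% higher in Nmi KO. Separation of Nmi KO replicates 1 and 3 from WT was thus widespread across the table. Without WT replicate 3 the share was 28.3% of all tested genes, and Axin2 was the only target that did not overlap. Without Nmi KO replicate 1 it was 11.8%, with Ccnd1, and without WT replicate 2 it was 8.01%, with Znrf3.

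Ratios within a mouse cancel the scaling of the library, and 7 of them were compared, chosen after the values were seen. Rnf43 exceeded Znrf3 in 6 of 6 libraries, 4.46, 2.67 and 7.16 times in Nmi KO replicates 1, 2 and 3 and 1.19, 3.37 and 2.89 times in WT replicates 1, 2 and 3. The geometric means were 4.40 in Nmi KO and 2.26 in WT, a log2 difference of 0.96 (exact permutation p = 0.3, n = 3 each, adjusted p = 0.7 over the 7 ratios), and 0.50 without WT replicate 1. Lgr6 likewise exceeded Lgr5 in 6 of 6 libraries, 1.14, 5.15 and 1.44 times in Nmi KO and 2.27, 3.06 and 2.53 times in WT (exact permutation p = 0.7, adjusted p = 0.817). The WT mice lay close together in that ratio, and the Nmi KO mice on both sides of them. Ccnd1 over Cd44 was 0.898, 0.577 and 1.82 in Nmi KO and 0.204, 0.604 and 0.743 in WT, a log2 difference of 1.12 (exact permutation p = 0.3, adjusted p = 0.7) that was 0.55 without WT replicate 1. Sox9 over Cd44 differed by 0.81 on the log2 scale (exact permutation p = 0.3, adjusted p = 0.7) and by 0.27 without WT replicate 1. In these comparisons 0 of 7 ratios separated the genotypes.

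Relative to Krt14, Cd44 and Tcf7 varied less than they did as FPKM. Cd44 over Krt14 ran from 0.0670 to 0.129 over the 6 libraries, a spread of 1.92 times, where Cd44 itself spread 3.92 times. Tcf7 over Krt14 spread 1.88 times, where Tcf7 itself spread 4.30 times. Lgr6 over Krt14 spread 3.70 times, against 6.82 times for Lgr6. The log2 difference between Nmi KO and WT was -0.25 for Cd44 over Krt14, -0.11 for Tcf7 over Krt14 and -0.14 for Lgr6 over Krt14 (exact permutation p of 0.5, 0.7 and 0.9, n = 3 each). For Cd44 over Krt14 it was -0.034 without Nmi KO replicate 1, -0.11 without WT replicate 1 and between -0.39 and -0.24 without any other library.

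**Figure D4:**
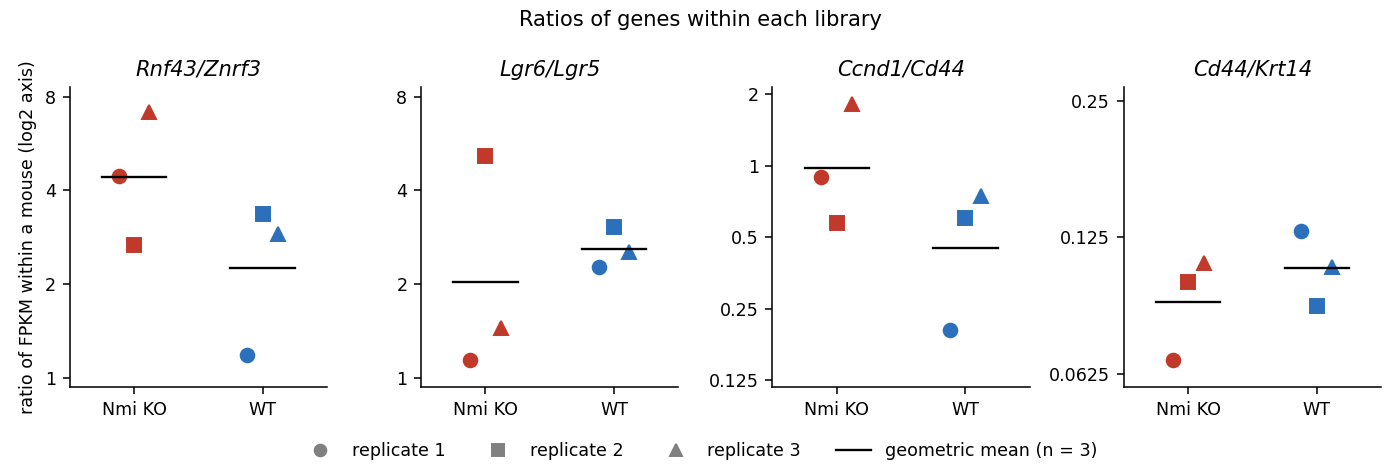
Ratio of the FPKM of 2 genes within each mouse on a log2 axis, Nmi KO left of WT, with marker shapes for replicates and a bar for the geometric mean (n = 3). Nmi KO and WT overlap in each panel, and WT replicate 1 is the lowest mouse for Rnf43/Znrf3 (1.19) and Ccnd1/Cd44 (0.204) and the highest for Cd44/Krt14 (0.129).

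Of the tested genes in 5 further lists of the pathway, 0 passed the adjusted threshold in either direction. Low genes were unevenly spread over the lists. Under 1 FPKM in all 6 libraries were 15 of 32 other targets, 10 of 18 ligands and R-spondins and 7 of 11 secreted inhibitors. The same held for 3 of 13 receptors and co-receptors and 2 of 23 genes of the β-catenin core. Under 0.1 FPKM in all 6 libraries were 5, 7, 4, 1 and 1 genes of these lists, in that order. Over the whole table, between 9084 (Nmi KO replicate 3) and 10116 (WT replicate 1) of the 17739 genes reached 1 FPKM in a library. The share of all genes under 1 FPKM in all 6 libraries was not computed. Of 14 tested genes among other Wnt targets, 9 had negative fold changes, where 7980 of all 9767 tested genes had negative ones. The median was -0.44 on the log2 scale, against -0.21 for all tested genes and 0.12 for the 5 tested Wnt targets described above. The median of the other Wnt targets was -0.25 after trimmed-mean rescaling, but 0.035 with the milk share as covariate and 0.052 without both WT replicate 1 and Nmi KO replicate 3. Jun, an immediate early transcription factor, was the only tested one whose groups did not overlap, with 125.9 ± 14.2 FPKM in Nmi KO and 92.7 ± 15.7 FPKM in WT (SD, n = 3 each; limma adjusted p = 0.768). That is 1 of 14, where 4.61% of all tested genes did not overlap, 0.778% higher in Nmi KO. Below the filter and named after their values were seen, Nkd1 and Ascl2, a feedback inhibitor and a transcription factor, were lower in every Nmi KO library than in every WT library. Nkd1 had 0.197, 0.198 and 0.173 FPKM in Nmi KO, against 0.241, 0.265 and 0.215 FPKM in WT. Ascl2 was near the floor, at 0, 0.0211 and 0 FPKM in Nmi KO, against 0.0476, 0.0244 and 0.0424 FPKM in WT. Of the other lists, Wnt10b was also lower without overlap (at most 0.0158 FPKM in Nmi KO). Sfrp1 was higher without overlap, with 0.797, 0.910 and 0.995 FPKM in Nmi KO, against 0.307, 0.782 and 0.618 FPKM in WT. The share of such genes below the filter was not computed. Sox4, also a transcription factor, had 71.9 ± 28.4 FPKM in Nmi KO and 68.3 ± 8.90 FPKM in WT. Ephb3, an ephrin receptor of epithelia, had 3.24 ± 1.82 FPKM in Nmi KO and 5.56 ± 1.71 FPKM in WT, with the smallest p of its list.

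All 9 tested receptors and co-receptors had negative log2 fold changes (median -0.26), as had 7980 of all 9767 tested genes. Of the 9, 4 were above the median of all genes. The median of the receptors was -0.083 after trimmed-mean rescaling and 0.0064 without both WT replicate 1 and Nmi KO replicate 3. Lgr4, the receptor for R-spondins that is paralogous to Lgr5 and Lgr6, had 24.3 ± 6.38 FPKM in Nmi KO and 25.2 ± 6.20 FPKM in WT (SD, n = 3 each), and its lowest library lay far above the highest of Lgr5 or Lgr6. Lrp5, a Wnt co-receptor, had 11.02 ± 3.23 FPKM in Nmi KO and 13.8 ± 1.86 FPKM in WT, and the receptor gene Fzd1 had 1.22 ± 0.588 FPKM in Nmi KO and 1.92 ± 0.936 FPKM in WT. Of 5 tested ligands and R-spondins, 4 were negative (median -0.53), and the median was 0.074 without those 2 libraries. Wnt5b had 7.78, 14.4 and 2.49 FPKM in Nmi KO, against 21.9, 10.8 and 13.0 FPKM in WT. Wnt4, a progesterone-induced ligand of the mammary gland, had 1.81 ± 1.35 FPKM in Nmi KO and 2.15 ± 0.401 FPKM in WT.

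The β-catenin core followed the bulk of the table, with a median of -0.20 over 21 tested genes, which was 0.0038 after quantile normalization. Ctnnb1, which encodes β-catenin, had 74.3, 106.7 and 44.8 FPKM in Nmi KO, against 122.7, 96.1 and 91.3 FPKM in WT. Nmi KO replicate 3 was the lowest, and Nmi KO replicate 2 was within the WT range. Csnk1a1, the kinase that primes β-catenin for destruction, had 74.9 ± 18.5 FPKM in Nmi KO and 84.7 ± 6.41 FPKM in WT (SD, n = 3 each), and Pygo2, a nuclear coactivator, had 4.27 ± 1.73 FPKM in Nmi KO and 6.98 ± 2.21 FPKM in WT. Bcl9l, a β-catenin coactivator named here after its values were seen, was the only gene of that list whose groups did not overlap, lower in Nmi KO. That is 1 of 21 tested genes, where 4.61% of all tested genes did not overlap, 3.83% lower in Nmi KO. The secreted inhibitor Sfrp2 had 4.31, 3.53 and 2.96 FPKM in Nmi KO, against 1.49, 1.95 and 3.61 FPKM in WT. Kremen1, a receptor for Dickkopf inhibitors, had 3.41 ± 1.01 FPKM in Nmi KO and 4.44 ± 1.05 FPKM in WT. The median of the 3 tested secreted inhibitors was 0.04.

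**Figure D5:**
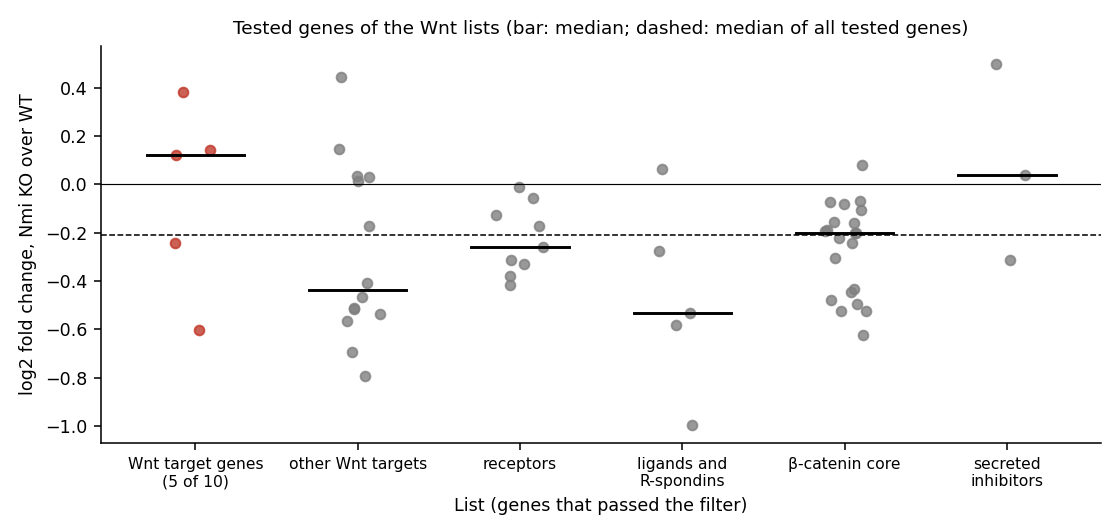
log2 fold change (Nmi KO over WT, FPKM + 1) of each tested gene, for the 5 Wnt targets that passed the filter, in red, and for 5 further Wnt lists, in gray, with a bar at each list's median and a dashed line at the median of all tested genes (-0.21). The medians lie at 0.12 for the Wnt targets, -0.44 for other targets, -0.26 for receptors, -0.53 for ligands and R-spondins, -0.20 for the β-catenin core and 0.04 for secreted inhibitors.

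Markers of other cell types were found in both genotypes. The fibroblast list (6 genes) summed to between 32.2 and 59.1 FPKM in Nmi KO and between 22.7 and 52.1 FPKM in WT, led by Col3a1 and Dcn. The endothelial list (6 genes) summed to between 45.8 and 86.4 FPKM in Nmi KO and between 43.8 and 94.0 FPKM in WT, led by Cdh5 (19.2 to 38.8 FPKM over the 6 libraries) and Pecam1 (14.5 to 33.7 FPKM), so its sum was near or above that of the 10 Wnt targets (39.0 to 66.1 FPKM). The myeloid list (7 genes) summed to between 8.33 and 15.7 FPKM in Nmi KO and between 10.7 and 12.8 FPKM in WT. Of its members only Cd68 had a lower mean in Nmi KO than in WT. Cd68, a lysosomal protein of macrophages, had 5.03, 5.64 and 3.35 FPKM in Nmi KO, against 6.92, 6.84 and 6.94 FPKM in WT, with no overlap. Lyz2, a lysozyme, had 6.71 ± 3.38 FPKM in Nmi KO and 4.11 ± 1.03 FPKM in WT (SD, n = 3 each), and the groups overlapped. Mean levels of Csf1r and Ptprc were 2.496 and 2.43 times those of WT in Nmi KO, with overlap. Those of Fcgr3, Adgre1 and Itgam were 1.88, 1.62 and 1.35 times those of WT, also with overlap. All of these genes were low. Csf1r had 0.208, 0.711 and 0.951 FPKM in Nmi KO, against 0.188, 0.243 and 0.318 FPKM in WT. Ptprc had 0.0647, 0.0960 and 0.303 FPKM in Nmi KO, against 0.0880, 0.0486 and 0.0543 FPKM in WT, so only Nmi KO replicate 3 stood far above WT. The endothelial sum and Thy1 were highest in Nmi KO replicate 2, WT replicate 1 and WT replicate 2, as Cd44, Tcf7 and Lgr6 were, while the fibroblast sum was higher in Nmi KO replicate 3 (51.6 FPKM) than in WT replicate 1 (47.7 FPKM). The part of these cells in those values was not tested.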

How the data were processed

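RNA-seq libraries of 3 Nmi KO and 3 WT mice were compared. The authors deposited FPKM values for 17739 gene symbols. Per the submitters' processing notes, the software included Cufflinks, TopHat, SAMtools and FastQC, and both mm10 and GRCm38 are named as the build. The sources used here give no versions, parameters, strand setting or annotation. Genotypes were tested by limma 3.58.1 (R 4.3.3; empirical Bayes with an intensity trend, two-sided) on log2(FPKM + 1) for 9767 genes with at least 1 FPKM in at least 3 libraries. Exact permutation tests used scipy 1.17.1. The fit was tested on simulated data. Mice carry unpaired numbers in the labels, so no block was used. Coordinates and exon overlaps came from GENCODE M21 (GRCm38), and no target had a near-identical copy by BLAST 2.17.0 (95% identity over 50% of the transcript).

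The members and lists were chosen with earlier results of these data known. Genes named besides the 10 targets were Nmi, of each further Wnt list the 2 tested genes highest in mean FPKM and the 1 with the smallest p, of the milk proteins the highest, and of each marker list the 2 highest, of which Csn2 is not described. Bcl9l, Nkd1, Ascl2, Wnt10b, Sfrp1, Cd3d, Cd3e, Cd2, Cd8a, Csf1r and Ptprc were named outside that rule, after their values were seen. Nkg7, Fcgr3, Adgre1, Itgam, Elf5, Krt5 and Trp63 were named in the same way. Alternatives changed the filter, pseudocount, scaling, variance model, covariate and replicates.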

Additional observations from a re-analysis of the deposited data

How the results depend on the processing

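No paired analysis was possible because the mouse numbers in the labels are not shared between genotypes. Across the alternatives, 0 of the Wnt targets that entered each fit (5 under the filter of at least 1 FPKM) and 0 tested genes of the further Wnt lists passed the adjusted threshold. Over all genes the adjusted count stayed 0, except without both WT replicate 1 and Nmi KO replicate 3, an alternative chosen after seeing the data, where it was 1 (Gm7367, a predicted gene). The count at an unadjusted p under 0.05 was 326 without a filter, 78 without those 2 libraries, and between 25 (without WT replicate 1) and 1187 (without Nmi KO replicate 2) when 1 library was left out. That for targets whose groups did not overlap ran from 0 to 6. Signs turned for Lgr6 after trimmed-mean rescaling (0.0226 FPKM) and rescaling to the sum outside milk proteins (0.0289 FPKM), and for Tcf7 with the milk covariate (log2 fold change 0.14). Without both libraries, values were 0.067 for Ccnd1, -0.014 for Cd44, 0.15 for Tcf7, -0.047 for Rnf43, -0.026 for Sox9, and 0.0162 FPKM for Lgr5 and 0.163 FPKM for Lgr6. Leaving out 1 library gave log2 fold changes of -0.016 to 0.28 for Sox9, -0.60 to -0.036 for Tcf7 and 0.046 to 0.26 for Rnf43, and differences of -0.0483 to 0.00889 FPKM for Lgr5 and -0.284 to 0.129 FPKM for Lgr6. For log2 ratios they were -1.02 to 0.070 for Lgr6/Lgr5, -0.34 to 0.11 for Tcf7/Krt14 and -0.57 to 0.38 for Lgr6/Krt14. The cause of these turns was not tested.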
